A study of Mus musculus with 6 samples.

Results

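Circular RNAs (circRNAs) that carry an identifier of the circBase catalogue and were found in every library of the series numbered 316, out of 3168 circRNAs listed in all. They were chosen by 2 measured conditions, a name beginning with mmu_circ_ and a value above 0 in each of the 6 libraries. The cells were N2a, a mouse neuroblastoma line, turned towards a neuron-like state by 96 h in 2% serum with 10 µM retinoic acid. All 6 libraries share this differentiation. In 3 libraries the cells had received the solvent DMSO for 24 h, and in 3 they had received RSL3 at 5 µM for 24 h. RSL3 blocks GPX4, the enzyme that reduces lipid peroxides in membranes, and is used to set off ferroptosis. N2a is a single established line. No source used here says if replicates were grown as separate cultures, so p-values measure only the spread between these libraries, which may be technical.

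A circRNA forms when the spliceosome joins the end of an exon to the start of the same exon or of one further upstream, a reaction called back-splicing. The closed ring has neither a cap nor a poly(A) tail, and it resists enzymes that degrade RNA from its ends, so circRNAs are often long-lived. Neurons are rich in them, and some, such as the circle from the Cdr1as locus, bind microRNAs or proteins. A back-splice read is a sequencing read across that junction, and it is the only kind of read that tells a circle from the linear transcript of the same gene. circBase numbers are catalogue names. The files pair them with no gene and no position, so the circles are described here by number, with their reads.

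The circRNA values are headed CPM (counts per 1000000). Dividing each library's values by the smallest value above 0 gave whole numbers throughout, and these were taken as back-splice reads. DMSO replicates 1 to 3 held 9409, 7194 and 7179 of them, and RSL3 replicates 1 to 3 held 5226, 7364 and 6782 (mean 7927 ± 1283 and 6457 ± 1105, SD, n = 3; exact permutation test, two-sided, p = 0.3, where 0.1 is the smallest p that 3 against 3 allows). A single read was worth 110 CPM in the deepest library, DMSO replicate 1, and 181 CPM in the shallowest, RSL3 replicate 1. The values were scaled to the back-splice reads of a library, not to all reads, and summed to between 945239 and 1030940 per library. A level is thus relative to the other circles, and a rise or fall of all circles together, through fewer cells or less RNA per cell, could not be seen; in bulk samples these cannot be told apart. The library protocol in the labels names, under removal of ribosomal RNA, a poly(A) selection module, which circles without a tail would not be expected to pass.

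Of 1754 circRNAs with a circBase name, 316 (18.0%) were present in all 6 libraries, against 42 of 1414 (2.97%) named by coordinates. The circBase names were spread more evenly over the number of libraries, with 175 circles in 1 library, 372 in 3 and 252 in 5. Of the coordinate-named circles 635 were seen in 1 library and 40 in 5. Summed reads rise with the number of libraries partly by construction: circBase circles in 1 library had a median of 4 reads over all 6, those in 5 had 15, and the 316 in every library had 38.

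**Figure D1:**
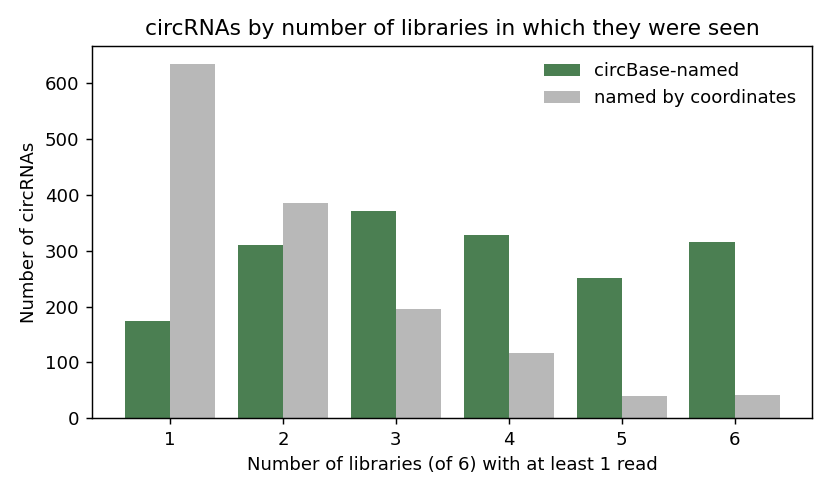
Bars give the number of circRNAs (vertical axis) seen in 1 to 6 libraries (horizontal axis), for circBase-named circles in green and coordinate-named circles in grey. At 6 libraries there were 316 green against 42 grey, and at 1 library 175 against 635.

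The boundary of the rule lies at low counts. The members with the fewest reads were mmu_circ_0001435 and mmu_circ_0001861, with 7 reads each, and mmu_circ_0001803, with 8. They had 1 or 2 reads in every library. Just outside stood circles with more reads and 1 empty library. The circle mmu_circ_0013341 had 17, 22 and 11 reads with DMSO and 4, 0 and 14 with RSL3. The circle mmu_circ_0001120 had 16, 10 and 13 reads with DMSO and 5, 17 and 0 with RSL3, and mmu_circ_0001533 had 12, 18 and 9 with DMSO and 0, 6 and 11 with RSL3. The empty library of each was an RSL3 library, where a count of 0 allows up to 3 reads, or 420, 447 and 543 CPM in that order. Of the 252 circBase circles seen in exactly 5 libraries, 17 (6.75%), 29 (11.5%) and 41 (16.3%) were missing from DMSO replicates 1 to 3, and 69 (27.4%), 43 (17.1%) and 53 (21.0%) from RSL3 replicates 1 to 3. Every RSL3 library missed more than every DMSO library, with 43 in RSL3 replicate 2 close to 41 in DMSO replicate 3. The part of depth in this was not tested. These 252 circles held 6 to 68 reads, and 242 of the 316 members had no more than 68. Of the members, 127 (40.2%) had a single read in at least 1 library, 189 had at least 2 reads in every library, 72 at least 5, and 35 at least 10.

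These 316 circles carried 19637 of the 43154 back-splice reads, 45.5%. Their share was 47.8% (95% exact Clopper-Pearson interval 46.8 to 48.8), 45.6% (44.5 to 46.8) and 46.0% (44.8 to 47.1) in DMSO replicates 1 to 3. It was 44.4% (43.1 to 45.8), 44.7% (43.5 to 45.8) and 43.5% (42.3 to 44.7) in RSL3 replicates 1 to 3. The intervals cover counting error only, since reads without molecular identifiers are not independent molecules. The DMSO libraries all lay above the RSL3 libraries, with means of 46.5% ± 1.16 and 44.2% ± 0.63 (SD, n = 3), although several intervals overlap. No p is given, because presence in every library chose these circles. Within circBase-named reads the share of the 316 was the same in both groups, 59.5% ± 0.71 with DMSO and 59.5% ± 0.56 with RSL3. The difference lay between circBase-named and coordinate-named circles as wholes. All circBase names together held 78.1% ± 1.86 of the reads with DMSO and 74.3% ± 0.52 with RSL3 (exact permutation test, two-sided, p = 0.1, the smallest possible). Replicates 1 to 3 stood at 80.1%, 77.7% and 76.4% with DMSO and at 74.8%, 74.4% and 73.7% with RSL3.

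**Figure D2:**
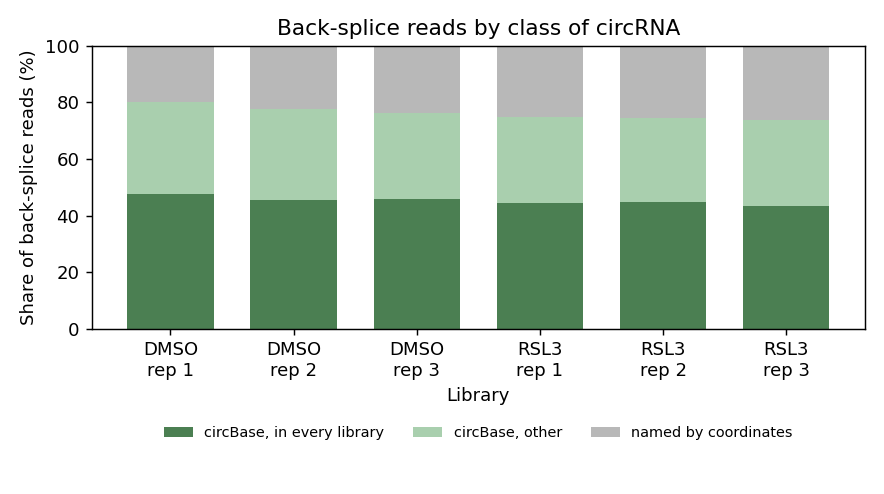
Stacked bars give the percentage of each library's back-splice reads in circBase circles seen in every library (dark green), other circBase circles (light green) and coordinate-named circles (grey). The coordinate-named part was 19.9% to 23.6% in the DMSO libraries and 25.2% to 26.3% in the RSL3 libraries.

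Abundance was spread over many circles. A member had a median of 38 reads over the 6 libraries, with the middle 50% of members between 24 and 62.3 and the extremes at 7 and 579. Mean levels ran from 166 to 12964 CPM, a 78.2-fold range, around a median of 876 CPM. The 10 circles with the most reads held 21.5% of the members' reads, and 50 circles held 50.1%. All 10 of the most abundant circles of the whole table belonged to this set, as did 44 of the top 50 and 86 of the top 100. The most abundant circle outside it was named by coordinates and held rank 11, with 269 reads.

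The circle mmu_circ_0000714 had the highest mean level. Its reads were 157, 118 and 104 with DMSO against 36, 111 and 53 with RSL3, or 15948 ± 1356 and 9981 ± 4854 CPM (SD, n = 3). RSL3 replicate 2 lay within the DMSO range while the other RSL3 libraries lay below it. In second place, mmu_circ_0000629 had 103, 65 and 81 reads with DMSO and 76, 86 and 119 with RSL3. Its levels were 10491 ± 1389 and 14507 ± 2932 CPM, and every RSL3 library stood above every DMSO library on the CPM scale. The circle mmu_circ_0001311 had 123, 76 and 55 reads with DMSO and 98, 90 and 67 with RSL3, with overlapping levels of 10513 ± 2904 and 13435 ± 3936 CPM.

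The fourth circle, mmu_circ_0000028, had 93, 64 and 59 reads with DMSO and 73, 101 and 85 with RSL3. Its levels were 9057 ± 1015 and 13336 ± 736 CPM, and the groups did not overlap. The fifth, mmu_circ_0000798, had 97, 84 and 105 reads with DMSO and 61, 72 and 50 with RSL3, at 12253 ± 2117 and 9520 ± 1851 CPM. Its groups overlapped, RSL3 replicate 1 lying between DMSO replicates 1 and 2. The sixth, mmu_circ_0000628, had 59, 52 and 53 reads with DMSO and 73, 70 and 79 with RSL3. Its levels were 6989 ± 476 and 11592 ± 1714 CPM without overlap, and DMSO varied less than for any other circle of the first 10.

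The remaining 4 of the first 10 had overlapping groups. The circle mmu_circ_0001350 had 96, 33 and 54 reads with DMSO and 48, 60 and 65 with RSL3, DMSO replicate 2 being the low library. For mmu_circ_0001032 the reads were 87, 50 and 52 with DMSO and 21, 73 and 51 with RSL3. For mmu_circ_0000684 they were 79, 52 and 49 with DMSO and 22, 47 and 50 with RSL3. For mmu_circ_0001368 they were 67, 52 and 39 with DMSO and 15, 58 and 56 with RSL3. In these last 3 circles RSL3 replicate 1 was the lowest of the 6 libraries, at 3798, 3979 and 2713 CPM.

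The order of the first 10 was not resolved between neighbours. The 5 highest means lay between 10887 and 12964 CPM, whereas a single circle of the first 10 varied over the 6 libraries with a coefficient of variation of 21.4% to 35.2%. Of the first 10, 5 (mmu_circ_0000714, mmu_circ_0000629, mmu_circ_0001311, mmu_circ_0000028 and mmu_circ_0000798) were among the 10 highest members in each of the 6 libraries, and 15 circles reached the 10 highest in at least 1 library. The circle mmu_circ_0000714 ranked 1, 1 and 2 in DMSO replicates 1 to 3 and 9, 1 and 7 in RSL3 replicates 1 to 3. Ranks 11 to 20 held 159 to 266 reads each, and 3 of these 10 had every RSL3 library below every DMSO library, and 0 above. Of the first 10, 3 had every RSL3 library above every DMSO library, and 0 below. Over the 1662 circles seen in at least 3 libraries, 4.33% lay wholly higher and 7.46% wholly lower with RSL3. These sets of 10 are small and were not tested against those shares. The circle at rank 12 of the members, mmu_circ_0000281, singled out for its low variation, overlapped between groups and varied by 12.2% over the 6 libraries, with 53, 49 and 38 reads with DMSO and 33, 46 and 32 with RSL3.

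**Figure D3:**
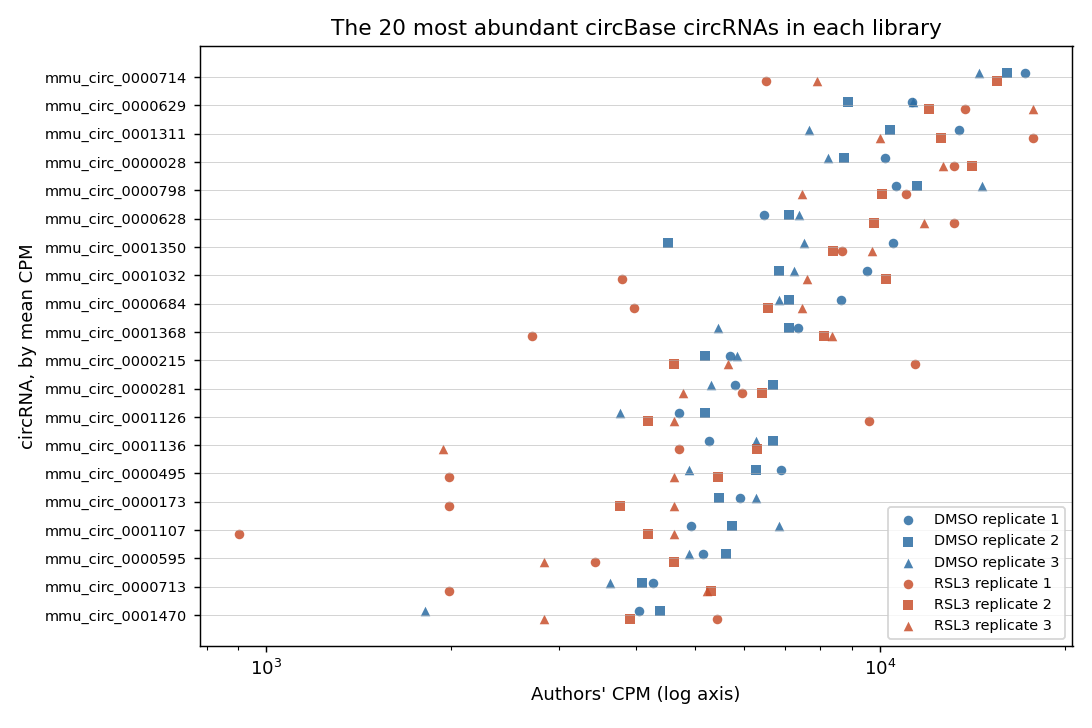
Points give the level in each library (authors' CPM, log axis) of the 20 most abundant circBase circRNAs, with DMSO in blue, RSL3 in red and the replicate by shape. RSL3 replicate 1 (red circles) lies far to the left for mmu_circ_0001368 (2713 CPM) and mmu_circ_0001107 (904 CPM), and to the right for mmu_circ_0001311 (17725 CPM).

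On average the circles varied between libraries of a group by more than counting reads would give. The variance within groups was set against that of Poisson counting, for which the ratio is 1. Its mean over the 316 circles was 2.03, and over the 85 circles with at least 60 reads it was 2.84. The DMSO libraries alone gave 2.24 over those 85, and the RSL3 libraries 3.45, or 2.83 without RSL3 replicate 1. The ratio within RSL3 exceeded that within DMSO for 54 of the 85. Among the 85, the circles with the largest ratios were mmu_circ_0000734 (8.87; 48, 12 and 14 reads with DMSO, 11, 23 and 3 with RSL3) and mmu_circ_0000714 (8.04). The smallest belonged to mmu_circ_0001665 (0.13; 19, 14 and 12 reads with DMSO, 8, 9 and 8 with RSL3) and mmu_circ_0001830 (0.28; 16, 17 and 13 with DMSO, 7, 12 and 10 with RSL3). Both of these last 2 had RSL3 libraries that all lay below the DMSO libraries in CPM. Their levels were 1890 ± 205 with DMSO against 1300 ± 132 with RSL3, and 1964 ± 314 against 1479 ± 207 (SD, n = 3). Circles picked for a small spread within groups separate more easily, so this is no sign of a change. Over all tested circles 7.46% lay wholly lower with RSL3. The fitted log2 fold changes of the 2 were -0.49 and -0.38 (limma adjusted p = 0.865 and 0.886).

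RSL3 replicate 1 stood apart from the other RSL3 libraries in many abundant circles. Of the 85 circles with at least 60 reads, 25 were at under 0.5 times the mean of RSL3 replicates 2 and 3 in it, and 6 were at over 2 times. For the other 5 libraries, set against the 2 others of their group in the same way, between 4 and 9 circles were under 0.5 times and between 3 and 10 over 2 times. The examples here were picked by their values. The circle mmu_circ_0000693 had 11, 23 and 10 reads with DMSO and 1, 24 and 11 with RSL3. The circle mmu_circ_0001473 had 1, 11 and 21 reads with RSL3 and 33, 29 and 11 with DMSO. In the opposite direction, mmu_circ_0000215 had 52, 38 and 42 reads with DMSO and 63, 33 and 38 with RSL3. Across the 316 circles, log2 levels of pairs of libraries correlated at 0.68 to 0.74 within DMSO, 0.60 to 0.66 within RSL3 and 0.58 to 0.70 between the groups (Pearson). Circles are not independent replicates, and all such values share the low reads of a library. The calls, the median fold change and the values of named circles given next were also computed without single libraries, and the counts of circles with separate groups without RSL3 replicate 1.

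**Figure D4:**
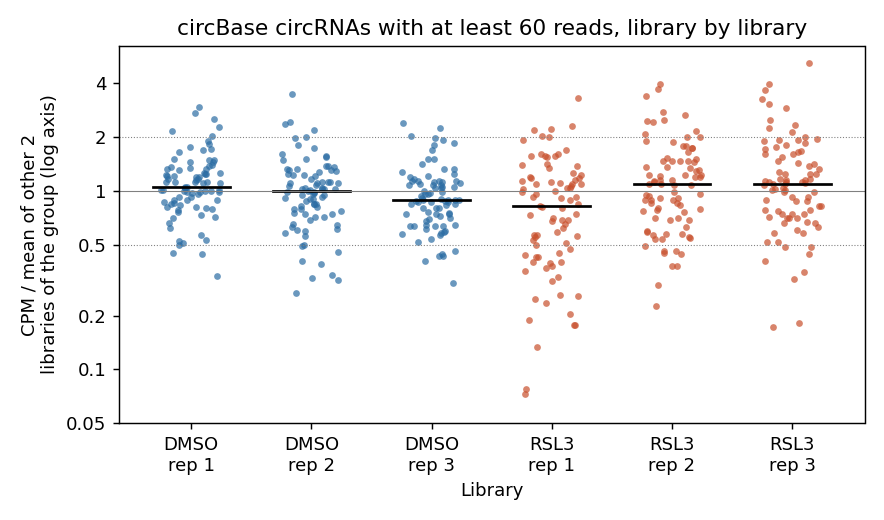
Each point is 1 of the 85 circBase circles with at least 60 reads, at its CPM in a library divided by the mean of the other 2 libraries of the group (log axis), with bars for the medians and dotted lines at 0.5 and 2. In RSL3 replicate 1, 25 points lie under 0.5, against 4 to 9 in the other libraries.

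No circBase circRNA of the 316 changed between RSL3 and DMSO at an adjusted p under 0.05. The test was limma with Benjamini-Hochberg adjustment over all 1662 circRNAs seen in at least 3 libraries, on log2 of CPM plus 140, and among all of them it called 0.0%. The smallest adjusted p was 0.556 among the 316 and 0.329 among all. The count test of edgeR on the recovered reads called 0 of the 316 and 1 other circle. An unadjusted p under 0.05 was reached in limma by 17 of the 316 (5.38%, background 7.76%), 4 higher (1.27%, background 2.05%) and 13 lower (4.11%, background 5.72%) with RSL3. In edgeR it was reached by 8 (2.53%, background 6.5%), and in DESeq2 by 7, beside 46 of all tested circles. The groups did not overlap for 38 circles (12.03%, background 11.8%), 14 higher (4.43%, background 4.33%) and 24 lower (7.59%, background 7.46%). Without RSL3 replicate 1, in an alternative added on seeing the data, 67 members (21.2%) had separate groups, 30 higher and 37 lower, as had 22.6% of all tested circles. Groups separate more easily with fewer libraries, so this share cannot be set against the 12.03% from all libraries. The shares of circles with separate groups were near those of all tested circles. The shares with an unadjusted p under 0.05 were below those of all tested circles in limma and edgeR. That background includes circles at 0 in some libraries. Of the 42 coordinate-named circles seen in every library, 2 (4.76%) reached such a p in limma and 5 (11.9%) in edgeR, and 4.76% had separate groups. The difference between members and other circles was not tested. Every member passed the filter on low values through its own rule. Since a circle at 0 in any library is no member, circles lost with one treatment cannot appear here.

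The median log2 fold change of the 316 was -0.072, beside -0.11 over all 1662. The middle 50% of members lay between -0.52 and 0.33, with 140 above 0 and 176 (55.7%) below, beside 55.3% below among all tested. Changes of at least 2-fold were fitted for 7 circles upwards and 21 downwards, 8.86% together (background 20.9%), and 9 of these 28 had at least 60 reads. Among the 42 coordinate-named circles seen in every library that share was 14.3%. The error of the members' fold changes was large. Counting alone gave a standard error of 0.49 (median) on the log2 ratio of the groups' summed reads, over 0.5 for 150 of the 316. The fitted standard error had a median of 0.69 and ranged from 0.27 for mmu_circ_0000629 to 0.94. At the median fitted error, which includes the spread between libraries beyond counting, a 2-fold difference (1 on the log2 scale) was within 2 standard errors.

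**Figure D5:**
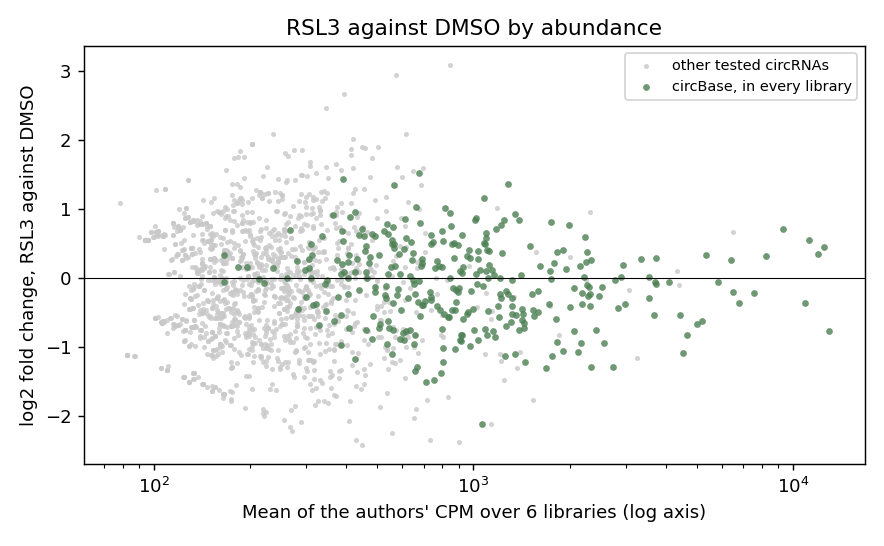
Each point is a tested circRNA, at its mean level (authors' CPM, log axis) and its log2 fold change with RSL3 against DMSO; circBase circles seen in every library are green. All green points together range from -2.11 to 1.53, and the 10 most abundant from -0.77 to 0.71. A range over fewer points is narrower in part for that reason alone.

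The lower circles with the smallest p, none of which passed adjustment, were mmu_circ_0008751, mmu_circ_0000714, mmu_circ_0001107 and mmu_circ_0001798. Choosing by p favours circles whose groups are separate, so separation adds no support to them. Over all tested circles 7.46% lay wholly lower with RSL3. The circle mmu_circ_0008751 had 22, 10 and 11 reads with DMSO and 1, 1 and 5 with RSL3, or 1771 ± 560 and 355 ± 338 CPM (SD, n = 3). Its groups did not overlap, and the fitted log2 fold change was -2.11 ± 0.69 SE (limma adjusted p = 0.556; edgeR adjusted p = 0.664). The circle mmu_circ_0000714, the most abundant of all, stood at -0.77 ± 0.27 (limma adjusted p = 0.556). Without RSL3 replicate 2, its high RSL3 library, it stood at -1.13 and passed (limma adjusted p = 0.0315); it passed in no other fit.

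For mmu_circ_0001107 the reads were 45, 42 and 49 with DMSO and 5, 30 and 31 with RSL3. All RSL3 libraries lay below all DMSO libraries, at 3241 ± 2035 against 5836 ± 956 CPM, and RSL3 replicate 1 was far below the rest. Its log2 fold change was -1.09 ± 0.40 (limma adjusted p = 0.556) and came to -0.38 without that library. The circle mmu_circ_0001798 had 38, 24 and 26 reads with DMSO and 11, 21 and 3 with RSL3, again without overlap, with RSL3 replicate 3 as its low library. It stood at -1.28 ± 0.49 (limma adjusted p = 0.556) and at -0.58 without that library.

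The higher circles with the smallest p were mmu_circ_0000628, mmu_circ_0000819, mmu_circ_0000028 and mmu_circ_0000705, and none of their groups overlapped in CPM, RSL3 being higher. These too were chosen by p, so their separation adds no support. Over all tested circles 4.33% lay wholly higher with RSL3. The circles mmu_circ_0000628 and mmu_circ_0000028 are in the first 10, with log2 fold changes of 0.71 ± 0.30 (limma adjusted p = 0.556) and 0.56 ± 0.28 (limma adjusted p = 0.618). Over the 16 other fits they ran from 0.61 to 0.84 and from 0.49 to 0.67. The circle mmu_circ_0000819 had 7, 2 and 8 reads with DMSO and 10, 13 and 13 with RSL3, or 719 ± 423 and 1855 ± 72.3 CPM. Its log2 fold change was 1.36 ± 0.62 (limma adjusted p = 0.556), and 0.90 without DMSO replicate 2, its lowest library. The circle mmu_circ_0000705 had 2, 3 and 1 reads with DMSO and 11, 5 and 4 with RSL3, with a log2 fold change of 1.53 ± 0.77 (limma adjusted p = 0.618) on very few reads.

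Among the abundant circles, 2 changed direction with 1 library. With all 6 libraries mmu_circ_0001368 stood at -0.20 ± 0.35 and mmu_circ_0001032 at -0.22 ± 0.33 on the log2 scale. Without RSL3 replicate 1 they stood at 0.32 and 0.17. None of these values passed in limma (adjusted p = 0.902 and 0.889 with all 6 libraries, and 0.855 and 0.944 without that one). The sign of mmu_circ_0001368 also turned by method with all 6 libraries, to 0.015 in edgeR and 0.061 in DESeq2. The other members of the first 10 that have not been named as higher or lower stood between -0.36 and 0.45 (limma adjusted p = 0.851 each), including mmu_circ_0000629 at 0.45 ± 0.27.

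The genes that act on circRNAs were read from the mRNA tables, whose values are FPKM, fragments scaled to transcript length and library size. RNA-binding proteins such as QKI promote back-splicing, whereas the editing enzyme ADAR and the helicase DHX9 undo the paired introns that favour it. Long circles leave the nucleus with help from DDX39B, and AGO2 and the G3BP proteins have been tied to circle turnover. Of 42 genes listed for these roles 36 were in the tables and 35 were tested; 3 fell and 0 rose (limma adjusted p under 0.05, background 6.38% of 10590 genes, 3.92% lower and 2.46% higher). Their median log2 fold change was -0.074, beside -0.031 over all tested genes. In the promoting list 2 of 12 fell, in the export list 1 of 4, and in the opposing list of 8 and the turnover list of 11 none passed.

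Nudt21 (ENSMUSG00000031754.10, chromosome 8, 94015496 to 94037031, minus strand, GRCm38), a subunit of the cleavage factor that chooses poly(A) sites, went from 19.0, 19.3 and 19.7 to 14.3, 15.3 and 14.7 FPKM. It fell by 0.37 on the log2(FPKM + 1) scale (limma adjusted p = 0.0179). Hnrnpl (ENSMUSG00000015165.16, chromosome 7, 28808541 to 28822266, plus strand), a splicing regulator, went from 54.02 ± 1.87 to 45.5 ± 0.73 FPKM (log2 fold change -0.24, limma adjusted p = 0.0495). Ran (ENSMUSG00000029430.13, chromosome 5, 129020069 to 129024323, plus strand), the GTPase of nuclear transport, went from 189 ± 4.73 to 151 ± 12.3 FPKM (-0.33, limma adjusted p = 0.0451). For all 3 the groups did not overlap. Leaving out any DMSO library, or RSL3 replicate 3, ended all 3 calls, leaving out RSL3 replicate 2 ended that of Hnrnpl, and 5 genes fell without RSL3 replicate 1. With the replicate number as a block none passed. The directions of Qk, Adar and Dhx9, given next, turned when single libraries were left out.

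The regulators Qk, Adar and Dhx9 did not pass. Qk stood at 9.75 ± 0.30 FPKM with DMSO and 9.04 ± 1.92 with RSL3 (SD, n = 3), its lowest library being RSL3 replicate 1 at 6.9 FPKM. Adar stood at 12.1 ± 1.84 and 11.99 ± 1.86 FPKM, and Dhx9 at 17.2 ± 0.67 and 18.0 ± 3.56 FPKM (limma adjusted p = 0.965 and 0.879).

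Other RNAs moved with treatment in the same libraries. Of 13 neuronal markers, 9 were listed, while Rbfox3, Nefl, Nefm and Dcx were not in the tables. The median log2 fold change of the 9 was -0.23. Only Gap43 passed, falling by 0.37 on the log2 scale (limma adjusted p = 0.0181). Without passing, Elavl4 (-0.61), Snap25 (-0.24) and Stmn2 (-0.23) lay wholly lower with RSL3, and Uchl1 (0.23) wholly higher. The others overlapped, among them Tubb3 at 116 ± 1.02 FPKM with DMSO and 115 ± 2.25 with RSL3. No listed astrocyte or microglia marker was in the tables, and of the oligodendrocyte and fibroblast markers only Mbp (1.06 to 1.25 FPKM) and Col1a1 (0.14 to 4.39 FPKM) were. All 11 liver markers were listed, and 10 of 10 tested fell (limma adjusted p under 0.05, background 3.92% lower of 10590 genes). The sum of the 11 was 58.8 to 80.9 FPKM with DMSO and 13.6 to 25.8 with RSL3. The mRNAs of replication-dependent histone genes largely lack poly(A) tails, as circles do. Of 65 such genes, 57 fell and 0 rose (limma adjusted p under 0.05, background 3.92% lower and 2.46% higher). The summed level of the 65 was 17079 to 18086 FPKM with DMSO and 9472 to 11176 with RSL3. That of Gm26917 and Gm42418, lncRNAs of the ribosomal RNA locus, was 18793 to 22979 FPKM with DMSO and 26639 to 33129 with RSL3. The part of these in the circRNA levels was not tested.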

How the data were processed

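The members and gene lists were chosen with earlier results of these data known. The authors deposited circRNA values headed CPM, here handled as a signal because the library sums differ (geometric mean 1000000). The sums equal 1000000 divided by edgeR's TMM factors of the recovered reads. Reads were recovered by dividing by each library's smallest value, which gave whole reads (tolerance 0.01) for 100% of the nonzero values. The authors deposited mRNA and lncRNA values as FPKM; per the submitters' processing notes, cutadapt, HISAT2 and StringTie 1.3.3 were used with GRCm38. No source used here names the circRNA caller. Every listed circRNA had at least 3 reads over the 6 libraries.

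Two-sided tests of RSL3 against DMSO used limma 3.58.1 with its variance trend, under R 4.3.3, on log2(CPM + 140), the pseudocount being the median of the libraries' smallest values above 0, and for mRNA on log2(FPKM + 1), keeping genes that reached 1 FPKM in 3 libraries. Fold changes on these scales understate the change of low values. edgeR 4.0.16 and DESeq2 1.42.0 on the reads were alternatives. The scripts were tested on simulated data. The labels' replicate numbers state no pairing. Positions are from GENCODE M21.

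Circles named by rule were the 10 with the highest mean CPM, for each direction the 4 of smallest p (none passing), the 2 with the largest and the 2 with the smallest spread among those with at least 60 reads, and the 3 nearest the boundary on each side. Genes named by rule were Qk, Adar, Dhx9 and the listed genes that passed; some items are not reported here.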

Additional observations from a re-analysis of the deposited data

How the results depend on the processing

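Over 16 alternative circRNA fits no circle of the 316 was called, except mmu_circ_0000714 without RSL3 replicate 2, where 1 was called; the range without single libraries was 0 to 1 for the 316 and 0 to 1 for all circles, and edgeR called 1 of all. An unadjusted p under 0.05 was reached by 17 of the 316 as reported and by 7 in DESeq2, 8 in edgeR, 11 with DESeq2 size factors, 11 with no filter, 3 without the variance trend and 6 to 18 without single libraries. For all tested circles it was reached by 129 of 1662, by 46 in DESeq2, 108 in edgeR and 125 with DESeq2 size factors. It was reached by 86 of 3168 with no filter, 103 without the variance trend and 78 to 101 without single libraries. When only circles of all 6 libraries were tested, 316 members and 42 named by coordinates, 25 reached it, 22 of them members. The members' median log2 fold change was 0.050 in DESeq2, 0.0072 with DESeq2 size factors and -0.0028 in edgeR, against -0.072, and -0.123 to -0.024 without single libraries. mmu_circ_0001368 stood at 0.061 in DESeq2, 0.015 in edgeR and 0.32 without RSL3 replicate 1, and mmu_circ_0001032 at 0.17 without it; without single libraries they ran from -0.47 to 0.32 and from -0.52 to 0.17. With at least 2 reads in every library the members' share was 38.5% with DMSO and 37.2% with RSL3, with at least 5 reads 26.0% and 25.8%, and of circBase reads 59.5% and 59.5%; without single libraries it was 45.8% to 46.9% and 43.9% to 44.5%. Ranking by summed reads or by median CPM gave the same 10 most abundant circles (10 shared). Without RSL3 replicate 1, an alternative chosen after seeing the data, 67 of the 316 did not overlap (21.2%, and 22.6% of all tested). With fewer libraries groups separate more easily, so this share is not comparable with that from all libraries. Of the genes acting on circRNAs, 3 fell as reported, 1 without the variance trend, 1 with quantile normalization, 0 with the replicate block and 0 to 5 without single libraries. Adar stood at 0.034 with quantile normalization, 0.098 without DMSO replicate 1 and 0.11 without RSL3 replicate 1, Qk at 0.049 without RSL3 replicate 1, and Dhx9 at -0.042 and -0.034 without RSL3 replicates 2 and 3; without single libraries they ran from -0.086 to 0.11, -0.22 to 0.049 and -0.042 to 0.21. The causes were not tested.

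For libraries with the same number, departures from the group mean correlated at -0.050, -0.000073 and -0.023 over the tested circRNAs. Libraries with different numbers gave -0.022 to 0.043 there. Over the members the same numbers gave 0.070, -0.012 and 0.053, and different numbers -0.075 to 0.027. Low reads pull such values towards 0, so they cannot decide if the libraries were paired. In limma with the replicate block 0 circRNAs were called, and 15 of the 316 had an unadjusted p under 0.05. Depth limits the low members most: 127 rest on a single read in some library.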

Other observations

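The catalogue number went with abundance. Of 578 listed circBase circles numbered under 2000, 34.4% were seen in every library, against 9.95% of 1176 with higher numbers. The 199 members with low numbers had a median of 44 reads and up to 579, and held 77.0% of the members' reads. The 117 with higher numbers had a median of 30 reads and up to 132, and the most abundant of them ranked 27. Among the 100 most abundant members 75 had numbers under 2000. The median log2 fold change with RSL3 was -0.11 for the low numbers and -0.0018 for the higher ones. The boundary of 2000 was chosen after the values were seen, so this is a description with no test.

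The direction of members with consecutive catalogue numbers was compared, with no test. Of 38 such pairs, 16 (42.1%) had fold changes of the same sign, beside 50.5% of all pairs of members. Among circles with at least 60 reads there were 8 such pairs, 6 of them (75%) with the same sign, beside 56.1% of all pairs of such circles. The pair mmu_circ_0000628 and mmu_circ_0000629 stood higher with RSL3 in both (0.71 and 0.45), while mmu_circ_0000713 stood at -0.060 and mmu_circ_0000714 at -0.77. In mmu_circ_0009217 and mmu_circ_0009218 RSL3 replicate 1 was at 3.29 and 0.18 times the mean of the other RSL3 libraries.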
